A study of Homo sapiens with 6 samples.

Results

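Expression of 10 growth factor receptor genes was followed in 6 xenograft tumors. They were grown from WM983-B, an established line of human melanoma. The receptor genes were EGFR, ERBB3, AXL, MET, KIT, KDR, PDGFRB, FGFR1, IGF1R and NGFR. The genes were chosen by name, as growth factor receptors tied to melanoma state and drug tolerance, and all 10 were found by symbol among the 60617 gene identifiers of each library. All 10 were among the 20423 genes that passed the filter on low counts. Of the tumors, 3 came from animals given anle138b systemically and 3 were untreated. Anle138b is a small diphenyl-pyrazole compound known to act on aggregates of α-synuclein. Sample titles fell into 2 naming patterns, each with both treatments. The 4-library set held anle138b replicates 1 and 2 and untreated replicates 1 and 2, and the 2-library set held replicate 3 of each group. The sources used here do not give what the patterns stand for, the host strain, the dose or the length of treatment. Nothing in the labels ties tumors to separate animals, so a p-value reflects only the spread among these libraries, which may be technical. All tumors came from 1 cell line.

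Receptor tyrosine kinases are membrane proteins that bind a growth factor outside the cell, pair up, and phosphorylate one another on tyrosines inside it. The phosphotyrosines recruit adaptors that feed the Ras-ERK and PI3K pathways. ERBB3 has a weak kinase of its own and signals mainly as a partner of other ERBB receptors. NGFR, the p75 neurotrophin receptor, has no kinase domain and marks neural crest-like melanoma cells. In melanoma, KIT and ERBB3 are known from melanocytic cells, and EGFR and AXL from less differentiated, drug-tolerant ones.

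Total counts were 27599159 and 22768826 in the 2-library set, deeper than the 12400782 to 15865560 of the 4-library set. Levels below are in CPM, counts scaled to the TMM-adjusted size of each library, and 3 counts stood for 0.106 to 0.24 CPM. Melanoma identity was checked with 7 markers, all of which passed the filter on low counts. Among them, the lineage factors SOX10 and MITF ranged from 428 to 529 CPM and from 953.5 to 1249 CPM. With treatment 0 of the 7 were called by edgeR and limma and 1 by DESeq2. By edgeR 3 had an unadjusted p under 0.05, against 8.49% of all genes. Between the naming sets 2 rose, S100B and MLANA (28.6%, against 15.5% of all genes). The call of MLANA was lost without untreated replicate 1 or 3 or anle138b replicate 3. In bulk tumors, fewer cells of a type and less RNA per cell cannot be told apart.

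The promoters of the receptors on which the results turn are shown first: MET, which changed with treatment, and KIT, EGFR and KDR, which differed most between the naming sets. Each window is the 250 bases before the RefSeq gene start (GRCh38.p14), written 5′ to 3′ on the strand of the gene. It lies on the plus strand at chr7:116671946-116672195 for MET, at chr7:55018767-55019016 for EGFR and at chr4:54657707-54657956 for KIT, and on the minus strand at chr4:55125596-55125845 for KDR. The MET window ends at the RefSeq start, which lies before the GENCODE start of 116672390, and 0 of 7 GENCODE transcripts of MET begin at it. Capitals mark GC boxes (GGGCGG or CCGCCC) and, in KDR, ACAAAG.
MET: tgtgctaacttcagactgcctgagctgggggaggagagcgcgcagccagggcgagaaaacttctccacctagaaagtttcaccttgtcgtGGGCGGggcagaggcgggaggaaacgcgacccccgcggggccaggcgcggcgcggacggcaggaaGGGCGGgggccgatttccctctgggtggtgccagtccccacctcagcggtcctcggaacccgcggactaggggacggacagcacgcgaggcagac
EGFR: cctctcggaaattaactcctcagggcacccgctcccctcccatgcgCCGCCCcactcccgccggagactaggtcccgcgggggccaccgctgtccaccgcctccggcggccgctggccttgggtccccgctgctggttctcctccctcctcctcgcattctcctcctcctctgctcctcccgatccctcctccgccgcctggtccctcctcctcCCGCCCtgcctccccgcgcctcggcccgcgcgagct
KIT: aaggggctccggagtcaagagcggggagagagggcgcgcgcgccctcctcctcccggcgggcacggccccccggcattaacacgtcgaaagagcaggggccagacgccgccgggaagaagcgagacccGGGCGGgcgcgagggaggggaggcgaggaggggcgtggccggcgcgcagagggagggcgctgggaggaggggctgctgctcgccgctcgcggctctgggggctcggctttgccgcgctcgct
KDR: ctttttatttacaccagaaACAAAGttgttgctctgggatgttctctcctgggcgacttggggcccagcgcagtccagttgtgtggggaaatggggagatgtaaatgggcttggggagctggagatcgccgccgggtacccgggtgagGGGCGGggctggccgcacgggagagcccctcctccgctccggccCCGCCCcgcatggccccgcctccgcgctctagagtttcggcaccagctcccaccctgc
The RefSeq table matched 7 of the 10 genes, without ERBB3, NGFR and FGFR1. GC content was 68.4% in MET, 73.6% in EGFR, 76.4% in KIT and 65.2% in KDR, against a median of 58% over 35116 promoters. A GC box stood in 7 of the 7 windows and in 42.6% of all promoters of this length. The AP-1 site (TGACTCA or TGAGTCA), the E-box CACGTG and the M-box core CATGTG, each read on both strands, stood in 0 of the 7, and in 4.2%, 6.34% and 9.42% of all promoters. A SOX-type site (ACAAAG or ACAATG, both strands) stood in KDR alone of the 7, starting 231 bases before the gene start, and in 21.2% of all promoters. No marked motif overlapped another of a different kind. These are matches of letters, and no binding was measured.

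Levels of the receptors spanned a wide range when scaled by length. CPM per kilobase of annotated exon is used here for every comparison between genes. ERBB3 was highest, with a level of 53.1 ± 9.17 CPM per kilobase (SD, n = 6), followed by IGF1R at 19.5 ± 2.77 and MET at 18.1 ± 5.74. IGF1R, the receptor of insulin-like growth factors, and MET, the receptor of hepatocyte growth factor, did not differ in level beyond their spread. ERBB3, IGF1R and MET together made up 83.8% to 94.7% of the length-scaled sum of the 10 genes in each library. Far below lay NGFR at 3.54 ± 1.34. Over all 6 libraries KIT (1.81 ± 1.98), AXL (1.54 ± 0.65), FGFR1 (0.991 ± 0.3), KDR (0.874 ± 0.768) and EGFR (0.648 ± 0.687) overlapped one another. These SDs include the difference between the sets. In the 2-library set KIT stood at 3.97 and 4.72, above these others (AXL up to 2.55) and beside NGFR (3.95 and 4.36). In the 4-library set AXL (0.819 to 1.53) stood above KIT (0.388 to 0.679), KDR and EGFR. PDGFRB was lowest at 0.258 ± 0.0957 CPM per kilobase.

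Among 59 receptor genes (the 58 receptor tyrosine kinases and NGFR), ERBB3 ranked 1 by mean level, IGF1R 3 and MET 4. Rank 2 was EPHA3, an ephrin receptor, at 35.7 ± 11.0 CPM per kilobase. NGFR ranked 13 of 59, and EGFR and PDGFRB ranked 32 and 35. Of the 10 receptors, KIT moved most along this order. Its rank was 26 to 30 in the 4 libraries of the 4-library set, and 11 and 13 in the 2-library set. With the longest transcript as the length, the levels of ERBB3 and FGFR1 became 81.1 and 2.21 CPM per kilobase. On that length ERBB3 kept rank 1, IGF1R came to rank 4, MET to rank 6 behind DDR1 and RYK, and FGFR1 went from 27 to 21.

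**Figure D1:**
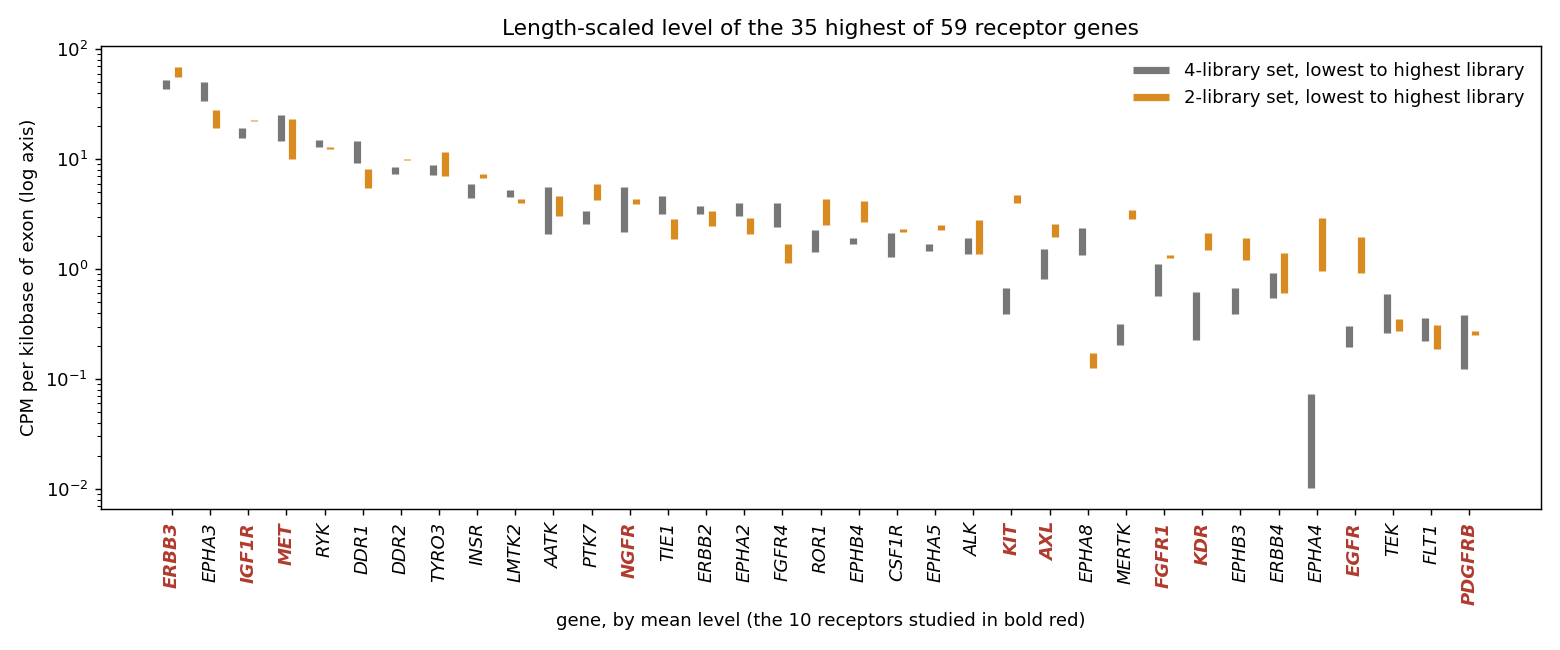
Length-scaled level (CPM per kilobase of exon, log axis) of the 35 highest of 59 receptor genes, with bars from the lowest to the highest library of the 4-library set (grey) and the 2-library set (orange). The 10 receptors studied are in bold red. ERBB3, IGF1R and MET stand at the upper left, and the bars of KIT, KDR and EGFR do not overlap between the sets.

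The first comparison asked which receptors differed between anle138b-treated and untreated tumors. MET fell, and the other 9 receptors did not pass the test. The MET gene (chr7:116672390-116798386, plus strand) encodes the receptor of hepatocyte growth factor. Its level was 104, 109.8 and 70.1 CPM in anle138b replicates 1 to 3, against 143, 178 and 162 CPM in untreated replicates 1 to 3. Every treated tumor lay below every untreated one, which held for 1 of the 10 receptors and, in either direction, for 8.5% of all genes (4.03% higher, 4.47% lower), and the lowest was the treated tumor of the 2-library set. The means were 94.5 ± 21.4 and 161 ± 17.7 CPM (SD, n = 3). In a fit with treatment and naming set, MET changed by a log2 fold change of -0.80 ± 0.14 (SE; adjusted p = 0.0356, edgeR quasi-likelihood test), or 0.576 times the untreated level.

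With 1 of 10 receptors called, the share among all genes tested was 1.05% (0.397% lowered). At an unadjusted p under 0.05 there were 4 of 10, namely MET, EGFR, KDR and ERBB3, against 8.49% of all genes (1734 of 20423). DESeq2 and limma also called MET alone of the 10. Over all 20423 genes they called 412 and 238 with treatment. The fall of MET was seen within each set, with differences in log2 CPM of -0.58 in the 4-library set and -1.21 in the 2-library set. The call was lost without anle138b replicate 1 (adjusted p = 0.112) or 3 (0.185), without untreated replicate 2 (0.103) or 3 (0.111), in the 4-library set alone (0.14) and without the set term (0.434). Its log2 change lay between -0.91 and -0.57 when single libraries were left out. Without replicate 3 of either group, the treatment estimate rests on the 4-library set, so those fits are not separate from that of the set alone.

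**Figure D2:**
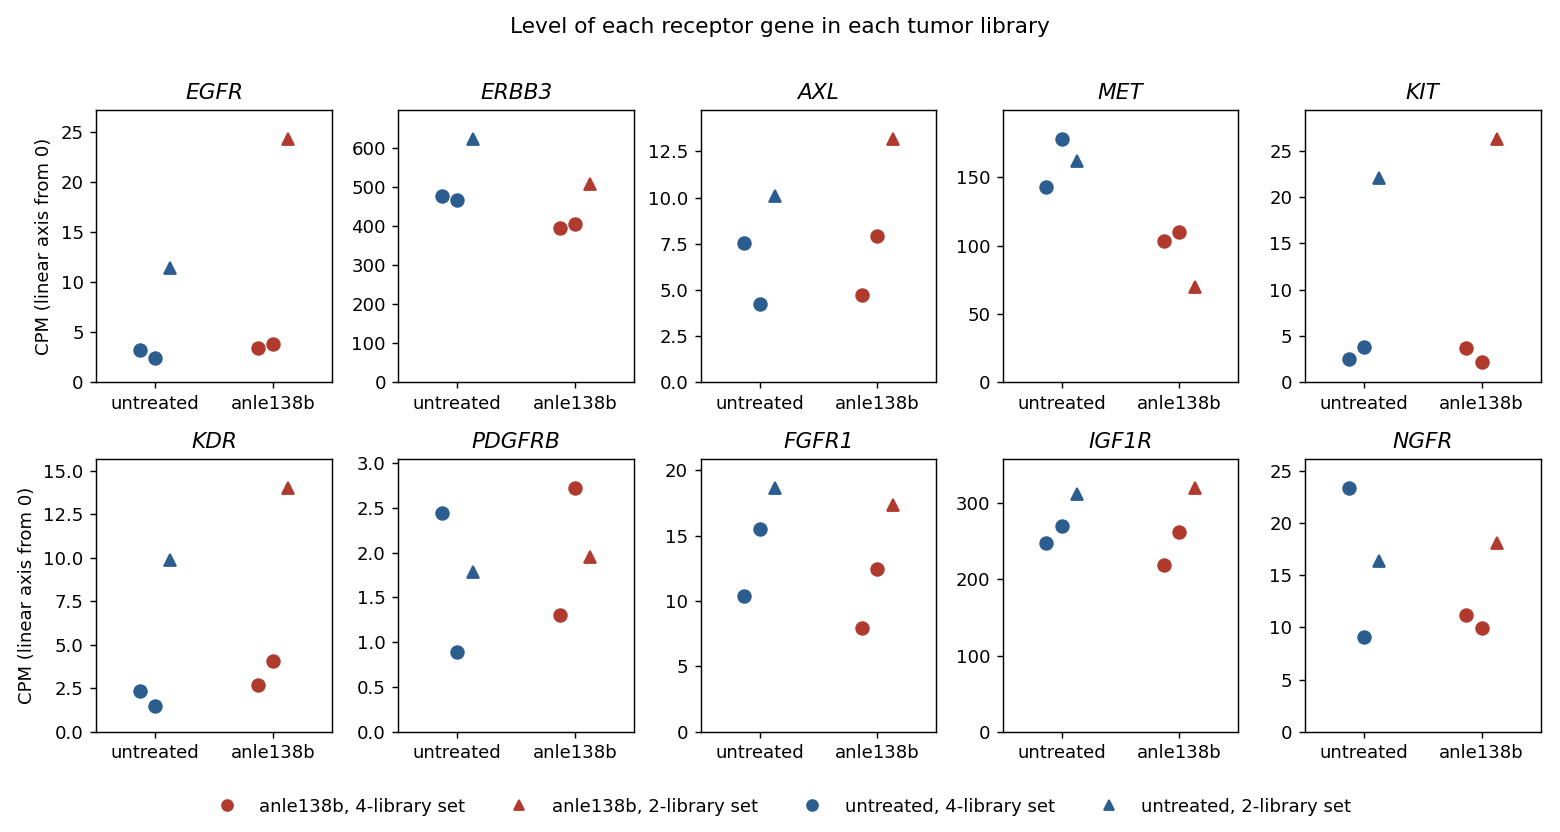
CPM of each of the 10 receptor genes in each of the 6 libraries (linear axes from 0, a scale per gene), with treated tumors in red and untreated tumors in blue, and circles for the 4-library set and triangles for the 2-library set. For MET the 3 treated points lie below the 3 untreated ones. For EGFR, KIT and KDR the triangles lie above all circles.

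EGFR (chr7:55019021-55211628, plus strand), the receptor of epidermal growth factor, had 45, 48 and 687 counts in anle138b replicates 1 to 3 and 53, 33 and 270 counts in untreated replicates 1 to 3. These are levels of 3.44, 3.83 and 24.3 CPM in treated against 3.23, 2.44 and 11.4 CPM in untreated tumors. Within each set the treated tumors were above the untreated ones, while over all 6 the groups overlapped. Its log2 fold change of 0.70 ± 0.21 did not pass (adjusted p = 0.244, edgeR), and passed without the low-count filter (adjusted p = 0.0413). Leaving out either library of the 2-library set gave 0.35 (anle138b) and 0.36 (untreated). Both fits then rest on the 4-library set, which alone gave 0.35.

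KDR (chr4:55078259-55125595, minus strand), a receptor of vascular endothelial growth factors, stood at 2.68, 4.07 and 13.98 CPM in treated against 2.31, 1.48 and 9.88 CPM in untreated tumors. It was likewise higher with treatment within each set (log2 fold change 0.66 ± 0.23, adjusted p = 0.368). ERBB3 (chr12:56076799-56103505, plus strand), a receptor of neuregulins, stood at 395, 406 and 509.6 CPM in treated against 479, 466 and 623.5 CPM in untreated tumors. It was lower with treatment within each set (log2 fold change -0.26 ± 0.10, adjusted p = 0.425). Treated and untreated tumors did not overlap within both sets, in the same direction, for 4 of 10 receptors (EGFR and KDR higher, ERBB3 and MET lower), against 19.9% of all genes (9.52% higher, 10.4% lower). In the 4-library set the 95% Poisson intervals of EGFR in anle138b replicate 1 and untreated replicate 1 overlapped (2.51 to 4.60 and 2.42 to 4.22 CPM). So did those of KDR (1.86 to 3.72 and 1.64 to 3.18 CPM), while those of KDR in replicate 2 of each group did not. No interval of ERBB3 or MET overlapped between treatments in that set. These intervals cover counting error only.

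For the remaining 6 receptors, treated and untreated tumors overlapped in the 4-library set. AXL (chr19:41219203-41261766), the receptor of GAS6, stood at 4.74, 7.91 and 13.2 CPM in treated and 7.55, 4.22 and 10.1 CPM in untreated tumors. KIT (chr4:54657918-54740715), the receptor of stem cell factor, stood at 3.75, 2.16 and 26.3 against 2.56, 3.78 and 22.1 CPM. IGF1R (chr15:98648539-98964530) stood at 218, 263 and 319.6 against 248, 270.4 and 313 CPM. In all 3 genes the libraries of the 2-library set were the highest of their groups. Log2 fold changes with treatment were 0.20 ± 0.25 for AXL, 0.08 ± 0.22 for KIT and -0.06 ± 0.11 for IGF1R, with adjusted p from 0.941 to 0.978 (edgeR).

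FGFR1, a receptor of fibroblast growth factors, stood at 7.95, 12.5 and 17.4 CPM in treated and 10.4, 15.5 and 18.6 CPM in untreated tumors. PDGFRB (chr5:150113837-150155872), the platelet-derived growth factor receptor of pericytes and fibroblasts, had the fewest counts of the 10 receptors, 12 to 55 a library. NGFR (chr17:49495293-49515017) stood at 11.2, 9.98 and 18.1 CPM in treated and 23.3, 9.11 and 16.4 CPM in untreated tumors. Untreated replicate 1 was the highest NGFR library, and its partner in the same set and group was the lowest. Log2 fold changes were -0.25 ± 0.20 for FGFR1, 0.19 ± 0.38 for PDGFRB and -0.34 ± 0.30 for NGFR, with adjusted p from 0.884 to 0.969. The sign for NGFR turned to 0.21 without untreated replicate 1, and that for PDGFRB to -0.11 without anle138b replicate 2 and -0.09 without untreated replicate 2.

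**Figure D3:**
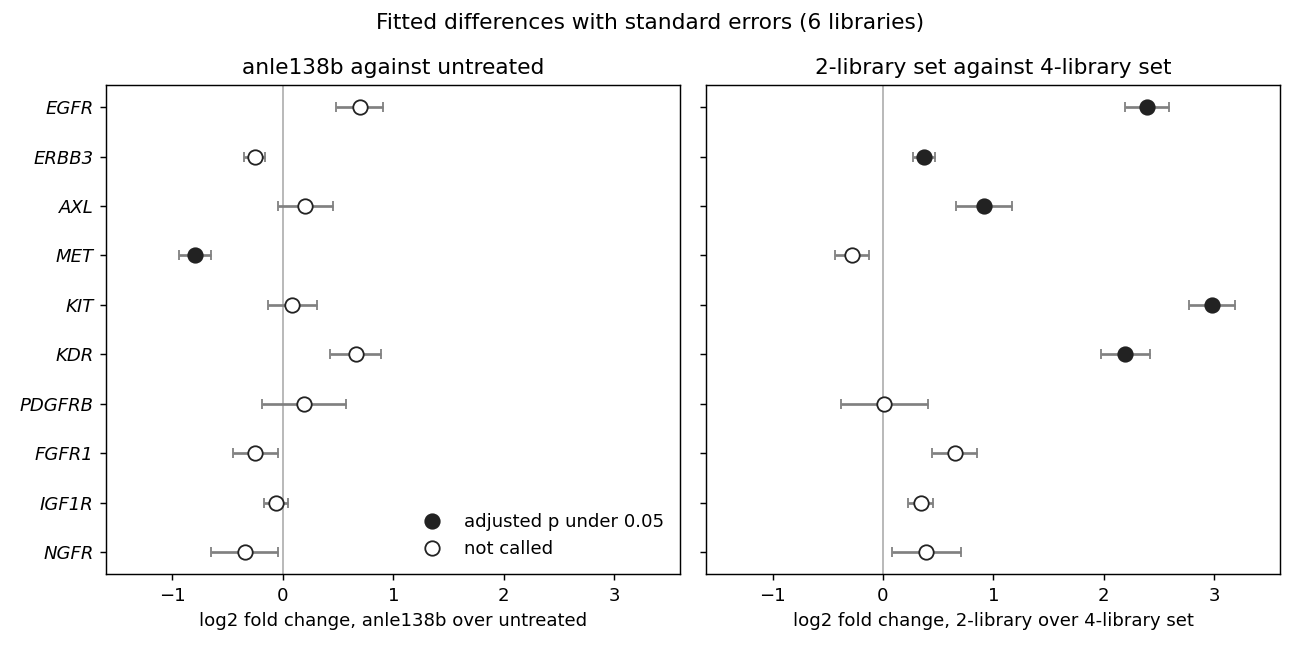
Log2 fold change with its standard error for the 10 receptors, anle138b over untreated on the left and the 2-library over the 4-library set on the right, from 1 fit over 6 libraries. Filled circles passed an adjusted p of 0.05: MET at -0.80 on the left, and EGFR, ERBB3, AXL, KIT and KDR on the right.

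Whether the treatment difference itself differed between the sets was tested with an interaction term. By edgeR, DESeq2 and limma 0 of the 10 receptors passed, with 1 at an unadjusted p under 0.05 by each tool, which was MET by edgeR. The share called among all genes was 0%, with 1345 (6.59%) at an unadjusted p under 0.05 by edgeR, and DESeq2 called 31 genes and limma 0. For MET the difference was -0.62 ± 0.24 on the log2 scale, so that the fall was larger in the 2-library pair (adjusted p = 0.736, edgeR). For EGFR it was 0.74 ± 0.35 (adjusted p = 0.751) and for NGFR 0.77 ± 0.57 (adjusted p = 0.825). Only the 4-library set holds replicates within a treatment, so this test has 2 residual degrees of freedom.

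**Figure D4:**
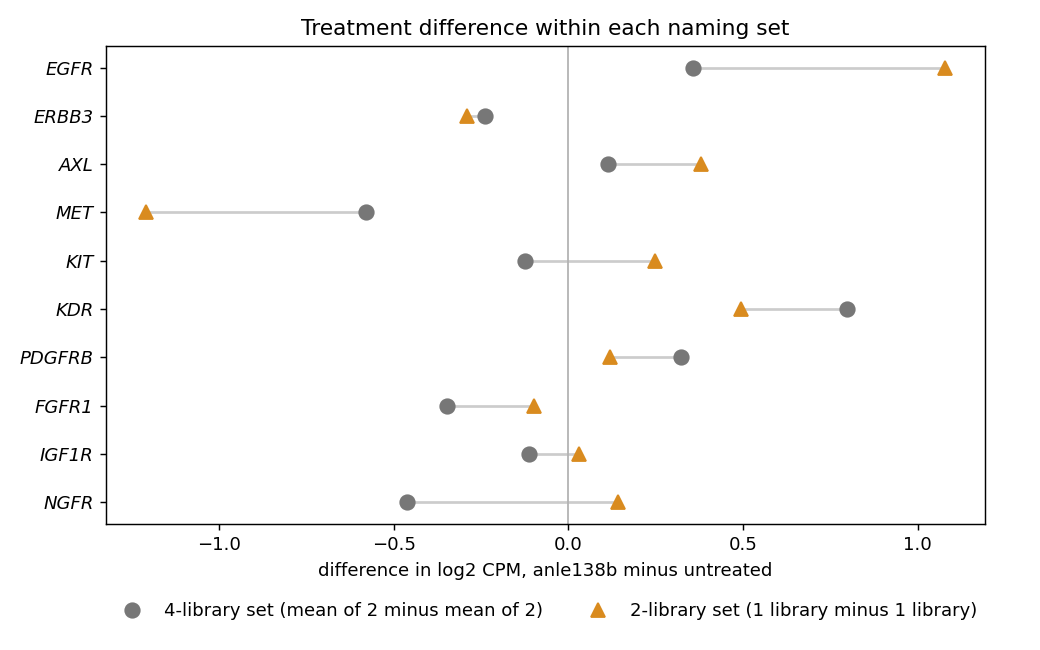
Difference in log2 CPM, anle138b minus untreated, for each receptor in the 4-library set (grey circles, mean of 2 minus mean of 2) and in the 2-library set (orange triangles, 1 library minus 1 library). MET lies below 0 and EGFR and KDR above 0 in both sets, while KIT, IGF1R and NGFR have points on both sides of 0.

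The second comparison set the 2-library set against the 4-library set, with treatment in the fit. KIT, EGFR and KDR were severalfold higher in the 2-library set, AXL and ERBB3 rose by less, and 0 of the 10 receptors fell. KIT stood at 26.3 and 22.1 CPM in the 2-library set and at 2.16 to 3.78 CPM in the other 4 libraries, a log2 fold change of 2.98 ± 0.21 (7.88-fold, adjusted p = 3.00e-05, edgeR). EGFR stood at 24.3 and 11.4 CPM against 2.44 to 3.83 CPM (2.39 ± 0.20, or 5.25-fold; adjusted p = 9.21e-05). The exact 95% Poisson intervals of the 2 higher EGFR libraries, 22.5 to 26.2 and 10.1 to 12.9 CPM, cover counting error only. KDR stood at 13.98 and 9.88 CPM against 1.48 to 4.07 CPM (2.20 ± 0.22, or 4.58-fold; adjusted p = 0.000259). These 3 genes were called in each of the 13 alternatives run for this comparison.

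AXL rose by 0.92 ± 0.25 on the log2 scale (adjusted p = 0.0384), from 4.22 to 7.91 CPM in the 4-library set to 13.2 and 10.1 CPM. ERBB3 rose by 0.37 ± 0.10 (adjusted p = 0.0352), from 395 to 479 CPM to 509.6 and 623.5 CPM. The call of AXL was lost without 4 of the 6 libraries (anle138b replicates 1 and 3, untreated replicates 2 and 3; adjusted p up to 0.188). That of ERBB3 was lost on leaving out each library other than anle138b replicate 2 (largest adjusted p 0.222). FGFR1 and IGF1R were also higher in both libraries of the 2-library set than in the other 4, at 0.65 ± 0.21 and 0.34 ± 0.11, and did not pass (adjusted p = 0.0614 and 0.0683, edgeR). They passed in 7 and 5 of the 13 alternatives, and AXL and ERBB3 in 9 and 8, so the split between these 4 genes is not sharp. NGFR, PDGFRB and MET overlapped between the sets, with log2 differences of 0.39 ± 0.31, 0.01 ± 0.39 and -0.28 ± 0.15. The difference for MET was 0.02 without anle138b replicate 3, and that for NGFR was 0.80 without untreated replicate 1 (adjusted p = 0.0143).

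The 5 of 10 called compare with 15.5% of all genes, 8.32% raised and 7.14% lowered. DESeq2 and limma each called 6 of the 10, against 3129 and 3399 of the 20423 genes. The ranges of 7 of 10 receptors did not overlap between the sets, all higher in the 2-library set, against 38.3% of all genes (19% higher, 19.4% lower). The median receptor differed by 0.52 on the log2 scale and the median gene by -0.02. Without scaling beyond library size, 64.4% of all called genes were raised, against 53.8% with TMM. The sets differ in depth and in whatever the titles encode, and these cannot be told apart from biology of the tumors.

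KIT and KDR are neighbours on chromosome 4, with 338 kb between them. The protein-coding genes within 600 kb of the pair were read beside them, a choice made after the values were seen. PDGFRA, the receptor gene next to KIT, stood at 1.04 to 2.40 CPM in all 6 libraries, with a log2 difference between sets of 0.33 (adjusted p = 0.527). On the KDR side, SRD5A3, TMEM165 and CLOCK differed by -0.37, 0.12 and 0.18 (adjusted p from 0.0727 to 0.436). KIT and KDR were the 2 called genes of the 6 that could be tested there.

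The other 49 receptor tyrosine kinases gave 32 that passed the filter on low counts. With treatment, 0 of 32 were called by edgeR and limma and 2 by DESeq2. By edgeR 7 had an unadjusted p under 0.05, against 8.49% of all genes. The smallest p belonged to TIE1, an endothelial orphan receptor (log2 fold change -0.52 ± 0.11, adjusted p = 0.0692), ROR1, a receptor of WNT5A (0.57 ± 0.14, adjusted p = 0.118), and ERBB4, a neuregulin receptor (-0.74 ± 0.20, adjusted p = 0.171). Between the sets, 10 rose and 5 fell (46.9%, against 15.5% of all genes). MERTK, which shares the ligand GAS6 with AXL, stood at 13.3 and 16.3 CPM in the 2-library set against 0.958 to 1.48 CPM (log2 difference 3.55 ± 0.18, adjusted p = 6.24e-06). The ephrin receptor EPHA8 went the other way, from 7.19 to 12.7 CPM in the 4-library set to 0.92 and 0.679 CPM (-3.66 ± 0.30, adjusted p = 7.99e-05). EPHA3 had a log2 difference of -0.84 ± 0.13 (adjusted p = 0.00303). The median over the 32 was 0.22 between sets and -0.01 with treatment.

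Of 35 genes listed as ligands of these receptors, 23 passed the filter on low counts. The list was broad and held PROS1 under AXL and FGF13 under FGFR1, which are not established ligands of those receptors. With treatment 1 fell and 0 rose (4.35%, against 1.05% of all genes). FGF1, a ligand of FGFR1, stood at 7.04, 7.59 and 11.5 CPM in treated against 14.3, 13.6 and 25.2 CPM in untreated tumors (log2 fold change -1.01 ± 0.13, adjusted p = 0.00675, edgeR). Each treated tumor was below the untreated ones of its set. The call was lost without untreated replicate 1 or 3, without anle138b replicate 3, in the 4-library set alone and without the set term (adjusted p up to 0.75), and the change stayed between -1.07 and -0.93. BTC, betacellulin, a ligand of EGFR, had a change of -1.07 ± 0.23 that did not pass (adjusted p = 0.0665). HGF, the ligand of MET, had one of -0.31 ± 0.34 (adjusted p = 0.934).

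Between the sets 9 genes of the ligand list rose, FGF13 among them, and 4 fell (56.5%, against 15.5% of all genes). TGFA, a ligand of EGFR, stood at 10.3 and 10.7 CPM in the 2-library set against 1.89 to 2.30 CPM (log2 difference 2.34 ± 0.18, adjusted p = 5.33e-05). HGF rose by 1.83 ± 0.32 (adjusted p = 0.00597), to 3.68 and 6.70 CPM, while its receptor did not pass. PDGFA, whose product binds mainly PDGFRA, rose by 2.16 ± 0.34 (adjusted p = 0.00343), which no longer passed once untreated replicate 3 was left out (adjusted p = 0.0677). IGF1, the ligand of IGF1R, went from 9.50 to 11.9 CPM to 2.90 and 4.71 CPM (-1.51 ± 0.19, adjusted p = 0.00107). VEGFA and KITLG, the ligand genes of KDR and KIT, were lower in the 2-library set by log2 differences of -0.92 ± 0.15 and -0.55 ± 0.13 (adjusted p = 0.00459 and 0.0217). The other measured KDR ligands, VEGFC and VEGFD, had differences of 0.15 ± 0.36 and 0.20 ± 0.30 that did not pass (adjusted p = 0.813 and 0.684). KIT and KITLG, and KDR and VEGFA, thus differed in opposite directions, and EGFR and TGFA in the same direction.

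**Figure D5:**
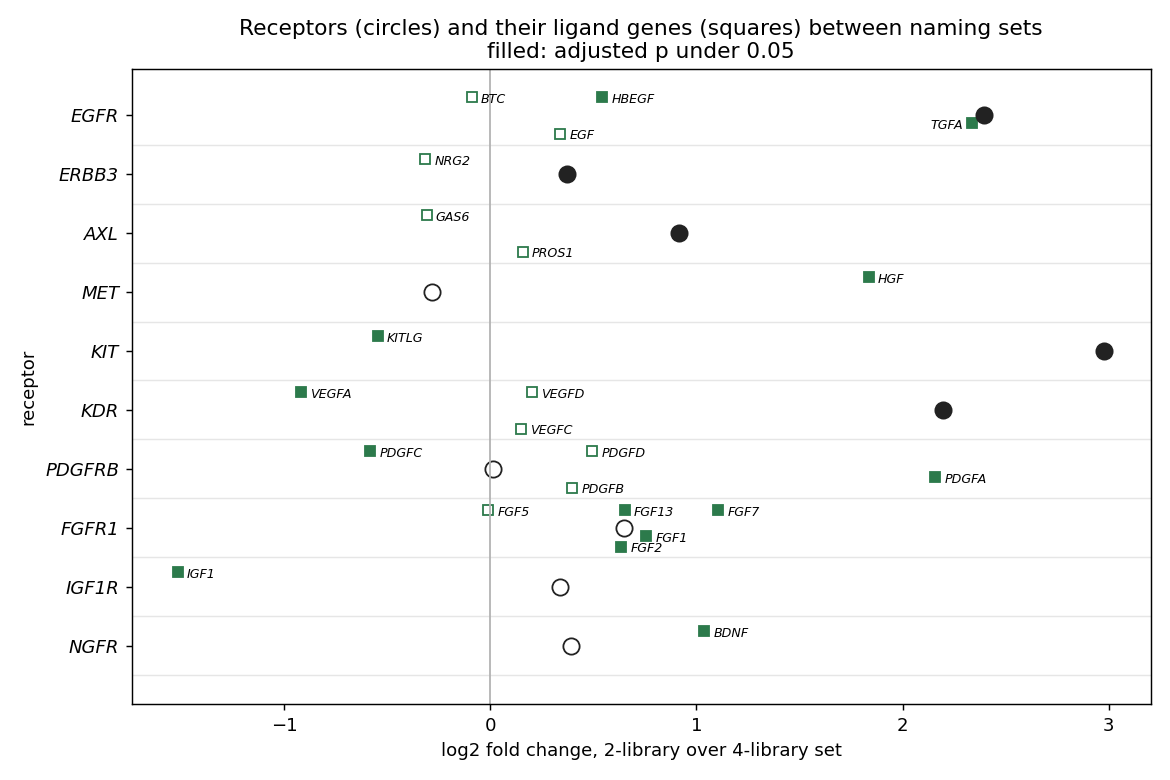
Log2 fold change between naming sets (2-library over 4-library) for each receptor (circles) and the genes listed as its ligands that passed the filter (squares), filled where adjusted p was under 0.05. PROS1 and FGF13 are drawn as listed, under AXL and FGFR1. TGFA lies beside EGFR near 2.4, and KITLG and VEGFA, unlike VEGFC and VEGFD, lie left of 0 while KIT and KDR lie right of 2.

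Co-receptors, adaptors and inhibitors of these receptors had 47 genes measured. With treatment 0 were called by edgeR and limma and 4 by DESeq2. By edgeR 8 had an unadjusted p under 0.05, against 8.49% of all genes. The feedback inhibitors SPRY2 and SPRED1 had changes of 0.46 ± 0.10 and 0.39 ± 0.09, and the semaphorin and VEGF co-receptor NRP2 had -0.42 ± 0.10 (adjusted p = 0.0665, 0.114 and 0.112). Between the sets 5 rose and 4 fell, 19.15% of the 47, which is near the 15.5% of all genes. Among them were SPRED1 and SPRY4 (0.60 ± 0.10 and 0.59 ± 0.10) and the FGF receptor antagonist IL17RD (-0.71 ± 0.10). Of 13 measured genes of ERK output, 0 were called with treatment by edgeR and limma and 3 by DESeq2. By edgeR 7 of the 13 had an unadjusted p under 0.05, against 8.49% of all genes. Between the sets 3 rose and 1 fell (30.8%, against 15.5% of all genes). PHLDA1 rose by 0.70. FOSL1, a subunit of AP-1 that is also in the list of state genes, changed by -1.40 ± 0.16 (adjusted p = 0.000514). SPRY2, SPRY4, SPRED1 and SPRED2 stand in both lists.

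Genes of melanoma state were read beside the receptors, 29 measured. With treatment 2 rose and 0 fell by edgeR (6.9%, against 1.05% of all genes), while DESeq2 called 4 and limma 2. NFATC2, a transcription factor activated by calcineurin, stood at 181, 197 and 263 CPM in treated against 91.8, 106 and 115 CPM in untreated tumors (log2 fold change 1.02 ± 0.11, adjusted p = 0.00217, edgeR). SNAI2, of the epithelial-mesenchymal factors, was the other (1.40 ± 0.13, adjusted p = 0.000868). Both calls were lost without the set term (adjusted p = 0.14 and 0.074) and held in the other 14 alternatives. TYRP1, a melanosome enzyme, stood at 492, 493 and 861.5 CPM in treated against 146, 104 and 704 CPM in untreated tumors. Its change of 1.42 ± 0.30 did not pass (adjusted p = 0.0692), and it passed in 6 of 15 alternatives, among them the 4-library set alone (1.98, adjusted p = 0.000938). Between the sets 7 rose and 1 fell (27.6%, against 15.5% of all genes). ZEB1, a repressor of epithelial genes, stood at 18.2 and 18.0 CPM in the 2-library set against 0.593 to 1.30 CPM (log2 difference 4.21 ± 0.23, adjusted p = 7.05e-06). CDH19, a cadherin of the neural crest lineage, rose by 0.92 ± 0.10 (adjusted p = 0.000528). SOX10 and MITF differed between sets by -0.17 ± 0.12 and -0.13 ± 0.15 and were not called (adjusted p = 0.343 and 0.593).

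Several of these receptors are also genes of stromal cells, and the sources used here do not say how reads of the mouse host were treated. KDR marks endothelium. Of 12 other endothelial markers 7 passed the filter, and 4 were under 1 CPM in every library, with PECAM1 at 0.306 to 0.679 CPM. Their summed level was 27.5 to 31.4 CPM in the 2-library set and 35.8 to 48.2 CPM in the 4-library set. Without TIE1, which gave 12.5 to 31.1 CPM, the other 11 summed to 12.4 to 15.1 CPM and 12.6 to 17.0 CPM, which overlap. EGFL7 was higher in both libraries of the 2-library set than in the other 4 (0.84 ± 0.27, adjusted p = 0.0658), and CDH5 and CLDN5 were lower in both. Between sets 1 of the 7 was called, TIE1, at -0.73 (adjusted p = 0.00427, edgeR), or 14.3%, near the 15.5% of all genes. With treatment the sum was 27.5 to 36.4 CPM against 31.4 to 48.2 CPM in untreated tumors. Of the 7, 0 were called by edgeR and limma and 1 by DESeq2. By edgeR 3 had an unadjusted p under 0.05, against 8.49% of all genes. KIT marks mast cells, whose 6 markers summed to 0.382 to 1.06 CPM, with the tryptase genes TPSAB1 and TPSB2 at 0 counts in all 6 libraries. EGFR is high in keratinocytes, whose 7 markers summed to 18.0 to 27.6 CPM, most of it KRT10, and KRT5 was at 1.66 CPM or less. The other 6 summed to 3.61 and 8.15 CPM in the 2-library set and 1.16 to 2.37 CPM in the 4-library set, so their sum was higher in the set where EGFR was higher. Within the 2-library set the order was the reverse. EGFR was higher in the anle138b library (24.3 against 11.4 CPM) and the marker sum in the untreated one (8.15 against 3.61 CPM). The part of keratinocytes in the level of EGFR was not tested. In CPM, 3 of these 6 (KRT5, DSG3 and TP63) were higher in both libraries of the 2-library set than in the other 4. KRT5 stood at 0.389 and 1.66 against 0.0609 to 0.0799 CPM, with 1 count in each of the other 4 libraries. DSG3 stood at 0.425 and 1.10 against 0 to 0.148 CPM. KRT14 (0.46 and 1.10 against 0.153 to 0.519 CPM), KRT15 and KRT1 overlapped between the sets. Of the 2 that could be tested, TP63 rose between the sets (1.39 ± 0.35, adjusted p = 0.0271, edgeR), or 50%, against 15.5% of all genes. Its call was lost without replicate 1 of either group or untreated replicate 3. With treatment 0 of the 2 were called by edgeR, DESeq2 or limma, with 0 at an unadjusted p under 0.05.

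PDGFRB marks pericytes and fibroblasts. The 15 markers of these cells summed to 617 and 892 CPM in the 2-library set and 453 to 568 CPM in the 4-library set. Most of each sum was COL1A1, COL1A2, COL3A1 and LUM. Of these, LUM overlapped between the sets (223 and 113 against 138 to 230 CPM). In 8 of the 15 both libraries of the 2-library set were higher than the other 4, against 19% of all genes. In 1, NOTCH3, both were lower (0.92 and 0.933 against 1.04 to 1.77 CPM), against 19.4% of all genes. Of the 15, 4 were called higher in the 2-library set, COL1A1, COL1A2, COL3A1 and KCNJ8 (26.7%, against 15.5% of all genes in either direction). The log2 differences of COL1A1 and COL3A1 were 0.81 and 0.99, and both calls were lost without anle138b replicate 3 (adjusted p = 0.121 and 0.119), with COL1A1 at 0.37. That of KCNJ8 was 1.69, lost without untreated replicate 3 (adjusted p = 0.0813). With treatment 1 of 15 rose, LUM (0.70 ± 0.12, adjusted p = 0.0249, edgeR), or 6.67%, against 1.05% of all genes. Its call was lost without replicate 1 or 3 of either group, in the 4-library set alone and without the set term (adjusted p up to 0.308). The part of these cells in the levels of the receptors was not tested. The 10 markers of myeloid cells, with 6 measured, summed to 29.3 to 60.8 CPM, and 0 were called with treatment by edgeR, DESeq2 or limma, with 0 at an unadjusted p under 0.05 by edgeR. Between the sets 1 of the 6 rose, ITGAM (1.09 ± 0.30, adjusted p = 0.039, edgeR), or 16.7%, near the 15.5% of all genes. Its call was lost by DESeq2 and without 4 of the 6 libraries (anle138b replicates 1 and 3, untreated replicates 2 and 3). The 6 Schwann cell markers, with 4 measured, summed to 201 to 309.9 CPM, and 0 were called in either comparison by the same 3 tools, with 0 at an unadjusted p under 0.05. Most of that sum was MBP (162.5 to 233 CPM). PRX stood at 4.50 to 6.19 CPM and DHH at 1.40 CPM or less, and 2 markers were under 1 CPM in every library.

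For each receptor with an average log2 CPM of at least 1, the 2 protein-coding genes with the most similar profile were taken by the root mean square difference in centred log2 CPM over the 6 libraries. For MET these were SLC22A25 and RIMS2, at 0.058 and 0.0937. For KIT they were SLCO5A1 and GPR27 (0.0865 and 0.126), for EGFR MACROH2A2 and ABAT (0.194 and 0.218) and for KDR GALC and ELMO1 (0.17 and 0.173). ERBB3 was nearest to TJP1 and MDGA2 (0.0329 and 0.0369), and IGF1R to ARHGAP24 and CDON (0.0466 and 0.0538). AXL was nearest to DCHS1 and PSG1, FGFR1 to ITGA10 and ALDH1L1, and NGFR to ELAPOR1 and CXCL14, at 0.118 to 0.152. The profiles share 6 libraries and a large difference between the sets, so nearness is a description only.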

How the data were processed

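RNA was extracted with TRIzol and made into libraries with a TruSeq v2 kit, per the labels' protocols. Each tumor has a deposited table of unnormalized read counts by gene. The submitters' processing notes name bcl2fastq 2.17.1.14, STAR 2.5.2a, featureCounts 1.5.0-p1 and hg38. The annotation release and the handling of multiply mapped and mouse reads are not given in the sources used here. Symbols, positions and exon lengths came from GENCODE release 29 (GRCh38), which held 58542 of 60617 identifiers, and a table of gene names.

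Genes were filtered by filterByExpr (minimum count 10, minimum total 15) and scaled by TMM. Counts of 20423 genes were tested with edgeR 4.0.16 (R 4.3.3) by the quasi-likelihood F test with treatment and naming set as terms, 3 residual degrees of freedom, and p-values adjusted over all genes by Benjamini-Hochberg (threshold 0.05). Groups came from the treatment label, and replicate numbers follow listing order. Standard errors derive from the F statistic, and 2 was the prior count of log2 CPM. Libraries of a group differed by a chi-square per degree of freedom of 10.5 and 10.7 within the 4-library set. Across the sets it was 25.2 to 58.8, which includes the set difference. Each library was counted as 1, though these values cannot show that libraries come from separate animals. Promoters came from RefSeq. DESeq2 1.42.0, limma 3.58.1, other scalings and filters and left-out libraries were alternatives. On simulated counts of the treatment comparison (19997 genes), 16%, 86%, 98% and 100% of changes of 0.5, 1, 2 and 3 on the log2 scale were recovered, and 4.46% of calls were false. Changes were planted only in genes with an average log2 CPM above 1, and PDGFRB had 0.98. Counts were drawn from the fitted model, so these shares do not cover libraries that depart from it.

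The receptors, the lists (253 entries, 250 matched) and the tests were chosen with earlier results of these data known. The rule for names took all 10 receptors, ligands that passed the filter, and from each other list the genes called with treatment and up to 3 with the smallest p in each comparison. SOX10, MITF, SPRED2, DDR1, RYK, PECAM1, COL1A2, NOTCH3, KRT5, KRT14, KRT15, KRT1, DSG3, CLDN5, TPSAB1, TPSB2 and the neighbours of KIT and KDR were named outside it. The GC box was added after the promoters were seen. Not all genes that the rule covers are reported here.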

Additional observations from a re-analysis of the deposited data

How the results depend on the processing

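KIT, EGFR and KDR kept their calls between the naming sets in all 13 alternatives, and MET kept its direction with treatment in all 15 and its call in 9. Genes called with treatment numbered 215 and were 9 without the set term, 754 without a low-count filter, 412 by DESeq2 and 92 in the 4-library set alone, and 89 to 392 when single libraries were left out. Receptors called with treatment were 1, and 0 without the set term and in the 4-library set alone, 2 without a low-count filter, and 0 to 1 with libraries left out. Between the sets 3157 genes were called, 6250 without a low-count filter and 993 to 5960 with libraries left out, and receptors called were 5 and then 3 to 7. The interaction gave 0 genes, 1 with upper-quartile scaling, 11 by library size alone, 262 without a low-count filter, 31 by DESeq2 and 24 to 436 with libraries left out, and 0 receptors, or 0 to 1 with libraries left out; the 1 was NGFR without untreated replicate 2 (1.29, adjusted p = 0.0403). In fits that leave out a library of the 2-library set, its lone library adds nothing to the treatment estimate. For treatment these fits largely repeat the 4-library set alone and are not separate alternatives. Between the sets they assume that the lone library varies like the others, and the interaction could not be fitted there. Fits on fewer libraries or without the set term test fewer samples or carry the set difference as spread; other causes were not tested.

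Signs turned for values that had not passed. With treatment, KIT was -0.0872 in the 4-library set alone and from -0.0818 to 0.25 with single libraries left out, IGF1R from -0.13 to 0.0207, NGFR from -0.63 to 0.21 and PDGFRB from -0.11 to 0.61. Between the sets, MET ran from -0.59 to 0.0169 and PDGFRB from -0.23 to 0.33 with libraries left out. There MBP ran from -0.0656 to 0.467, lowest without untreated replicate 3, and KRT10 turned to 0.00478 by library size alone. For the interaction the ranges were -0.20 to 0.71 for AXL, -0.0659 to 0.60 for FGFR1, -0.68 to 0.03 for KDR, -0.0043 to 0.80 for KIT, -0.0725 to 1.29 for NGFR and -1.04 to 0.52 for PDGFRB. No paired analysis was possible because the labels give no replicate numbers that pair tumors. PDGFRB rested on 12 to 55 counts a library, the fewest of the 10 receptors.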
